A study of Mus musculus with 17 samples.

Results

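The heavy chain constant genes *Ighm*, *Ighd*, *Ighg3*, *Ighg1*, *Ighg2b*, *Ighg2c*, *Ighe* and *Igha*, the kappa light chain constant gene *Igkc* and *Jchain* were followed in pWAT, the perigonadal white fat depot of the mouse. These 10 genes were taken by name from the 55401 gene identifiers of the series. The set was selected on the normalized counts of these genes in U9-KO and WT mice of each sex, so the genotype difference is given as a description. Counts of genes called in that contrast are printed beside the share of all genes, and nothing is read from them. One RNA-seq library was made from each of 17 mice, with 5 females and 3 males among the WT mice and 5 females and 4 males among the U9-KO mice, all on C57BL/6J, on a standard diet and 16 weeks old by the methods text. U9-KO mice lacked every exon of the long non-coding RNA gene *U90926* in all tissues and were littermates of the WT mice from heterozygous parents. The sample labels name no treatment. By the paper, WT and U9-KO mice of the cohort went through a phenotyping pipeline with food withdrawal, blood collection and a glucose injection. Which of these procedures the sequenced mice had gone through is not stated. Values are normalized counts, meaning that each library's read counts were scaled by its size factor.

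An antibody is built from heavy and light chains, and the heavy chain constant gene sets its class. A B cell that has not met antigen makes IgM and IgD from a single long transcript of *Ighm* and *Ighd* by alternative splicing. Class switching cuts the DNA so that another constant gene lies next to the variable region, giving IgG (*Ighg1*, *Ighg2b*, *Ighg2c*, *Ighg3*), IgE (*Ighe*) or IgA (*Igha*). Plasma cells secrete the product in large amounts, and *Jchain* encodes the joining chain that links IgM and IgA into polymers. Visceral fat of mice holds B cells, including cells of the B-1 type that lean towards IgM.

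On GRCm38 the 8 heavy chain genes lie in a row on the minus strand of chromosome 12, from *Ighm* (113418558 to 113422730) to *Igha* (113254830 to 113260236). *Igkc* is a single exon of 532 bases on the plus strand of chromosome 6 (70726435 to 70726966), inside an intron of the long non-coding RNA gene *Gm30211*. *Jchain* lies on the minus strand of chromosome 5 (88519809 to 88527891) and has 4 exons. The IgG subclass genes resemble each other in sequence, and the first 90 bases of their first constant exon are shown because counting by gene has to tell them apart. The sequences were read from the GENCODE M21 transcripts and run 5′ to 3′, and capitals mark bases that differ from *Ighg2c* at the same place.
Ighg2c: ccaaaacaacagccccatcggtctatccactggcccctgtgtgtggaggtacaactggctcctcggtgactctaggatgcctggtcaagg
Ighg2b: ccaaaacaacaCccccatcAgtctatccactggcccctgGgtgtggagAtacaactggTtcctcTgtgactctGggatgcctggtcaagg
Ighg1: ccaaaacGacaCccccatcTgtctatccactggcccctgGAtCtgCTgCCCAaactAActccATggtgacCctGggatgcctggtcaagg
Ighg3: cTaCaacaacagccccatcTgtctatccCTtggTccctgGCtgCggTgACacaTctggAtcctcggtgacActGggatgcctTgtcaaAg
These windows are coding sequence at chr12:113288843-113288932 for *Ighg2c*, chr12:113307844-113307933 for *Ighg2b*, chr12:113330434-113330523 for *Ighg1* and chr12:113361143-113361232 for *Ighg3*, all on the minus strand. *Ighg2b* differed from *Ighg2c* at 7 of the 90 bases, and *Ighg1* and *Ighg3* each differed from it at 18. Over the whole transcripts compared, the longest run shared without a mismatch was 78 bases for *Ighg2b* and *Ighg2c* and between 28 and 41 bases for the other IgG pairs. Among pairs that included *Ighm*, *Ighd* or *Igha* it was between 10 and 15 bases. By the paper's protocol, reads before trimming were longer than each of these runs. A full-length read within the transcripts compared would thus hold bases that differ between subclasses. Reads shortened by trimming may still be shared out with some uncertainty, above all between *Ighg2b* and *Ighg2c*, which was not tested. Fragments that span an annotated variable or joining segment and a constant gene were counted for neither in the Union mode used, so all levels here leave them out.

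Libraries summed to between 20243688 and 28620744 normalized counts, and the number of reads behind them is unknown. *U90926* was at 0 or 1 in all mice, so it could not check the genotype labels, while *Xist* and *Ddx3y* matched the sex of every library. Females and males seem to have been scaled apart, so levels were compared only within a sex, and the sexes were compared by shares within a mouse. Adipocyte markers summed to between 216249 and 681513, so the tissue matched its label. Ovary markers reached 125588 in WT female 4 and 140425 in U9-KO female 1, against a median of 28742 in WT and 8408 in U9-KO females. Blood markers, mostly hemoglobin genes, summed to between 48271 and 122306 in males and between 11466 and 41769 in females, with the female maximum in U9-KO female 3. *Madcam1* and *Glycam1*, markers of lymph node vessels, reached at most 5 in any mouse. Other genes of the same lymph node stroma list were higher, with means of 1637 for *Ccl21a*, 392 for *Cxcl13* and 39.7 for *Ccl19* over all mice. Whether the samples held lymphoid tissue was not tested.

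**Figure D1:**
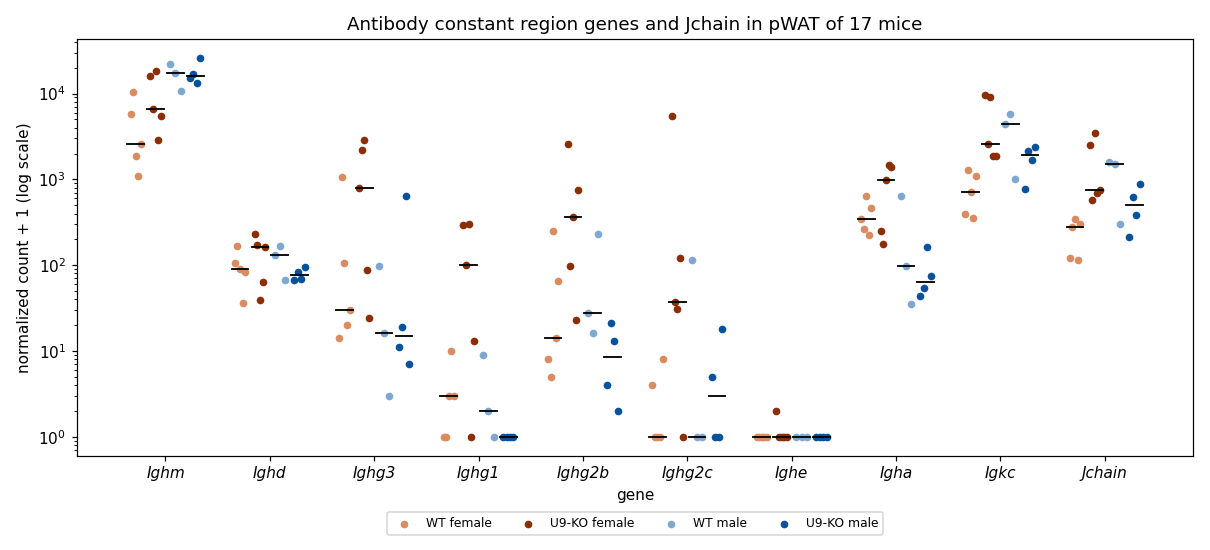
Normalized count plus 1 (log axis) of each of the 10 genes in each mouse, with one point per mouse colored by group and a black line at the group median. *Ighm* is high in every mouse, the IgG genes spread over several orders of magnitude within a group, and *Ighe* stays at 0 or 1.

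*Ighm*, the IgM heavy chain, had the highest level per kb of exon of the 8 heavy chain genes in all 17 mice. WT females had 5812, 10357, 1885, 1098 and 2556 normalized counts. U9-KO females had 15921, 6607, 18193, 2869 and 5498, which overlap the WT range. The means were 4342 ± 3811 (SD, n = 5) in WT and 9818 ± 6794 (SD, n = 5) in U9-KO females, a log2 fold change of 1.31 (SE 0.64). WT males had 22352, 17275 and 10615, and U9-KO males had 15227, 16668, 13359 and 26058. The male groups overlapped fully, with a log2 fold change of 0.11 (SE 0.27). *Ighd*, the IgD heavy chain that marks B cells before switching, stayed low in all groups. It ranged from 35 to 165 (median 89.0) in WT females, from 38 to 227 (median 164) in U9-KO females, from 67 to 168 in WT males and from 66 to 93 in U9-KO males. U9-KO female 3 combined the highest *Ighm* of all females, 18193, with an *Ighd* of 38.

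*Igkc*, the kappa light chain that most mouse antibodies carry, had 392, 1297, 712, 356 and 1093 normalized counts in WT females. U9-KO females had 9490, 2573, 9071, 1883 and 1859, so the lowest U9-KO female lay above the highest WT female. The means were 770.0 ± 418 and 4975 ± 3943 (SD, n = 5 each), a log2 fold change of 2.48 (SE 0.55). In males the values were 4461, 5786 and 1021 in WT and 777, 2134, 1701 and 2372 in U9-KO mice, which overlap. The male log2 fold change was -0.89 (SE 0.56).

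*Jchain* ran in parallel with *Igkc*. WT females had 120, 275, 341, 113 and 302 normalized counts, and U9-KO females had 2531, 576, 3471, 690 and 753, with no overlap and a log2 fold change of 2.54 (SE 0.53). WT males had 1575, 1491 and 301 and U9-KO males had 214, 616, 379 and 893, with a log2 fold change of -0.95 (SE 0.60). The male groups overlapped. In this bulk tissue, fewer cells of a type and less RNA per cell cannot be told apart.

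The IgG genes varied widely between mice of a group. *Ighg2c*, whose product is the IgG2c of C57BL/6 mice, had 3, 0, 0, 0 and 7 normalized counts in WT females and 5449, 36, 30, 120 and 0 in U9-KO females. U9-KO female 1 alone held 96.7% of the U9-KO female sum. In males it was 115 in WT male 1 and 0 in the other two, and 4, 0, 0 and 17 in U9-KO males. *Ighg2b* had 7, 4, 247, 13 and 65 in WT and 2562, 97, 359, 22 and 747 in U9-KO females, where U9-KO female 1 again led, with 67.7% of its group's sum. WT males had 27, 15 and 227 and U9-KO males had 3, 20, 12 and 1. The ranges of *Ighg2b* overlapped in both sexes.

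*Ighg3*, the IgG subclass often made against polysaccharides, was highest in U9-KO females 2 and 3. It had 13, 1073, 106, 19 and 29 normalized counts in WT females and 792, 2205, 2838, 87 and 23 in U9-KO females. WT males had 98, 15 and 2, and U9-KO males had 10, 18, 635 and 6, of which U9-KO male 3 held 94.9%. The groups overlapped in both sexes. *Ighg1* had 0, 0, 2, 9 and 2 in WT females and 290, 100, 297, 0 and 12 in U9-KO females. Among males it was 8, 1 and 0 in WT and 0 in each of the 4 U9-KO mice, too low to be fitted. *Ighe*, the IgE heavy chain, had 1 normalized count in U9-KO female 1 and 0 elsewhere, so IgE transcripts were not detectable at this depth.

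*Igha*, the IgA heavy chain, was detected in every mouse. WT females had 341, 265, 642, 225 and 468 normalized counts and U9-KO females had 251, 174, 992, 1451 and 1393. The female ranges overlapped. Of the 2 U9-KO females with the largest IgG share, U9-KO female 1 (251) lay within the WT range and U9-KO female 2 (174) below it. WT males had 636, 97 and 34 and U9-KO males had 43, 53, 164 and 74. The log2 fold change was 0.77 (SE 0.59) in females and -0.82 (SE 0.82) in males.

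**Figure D2:**
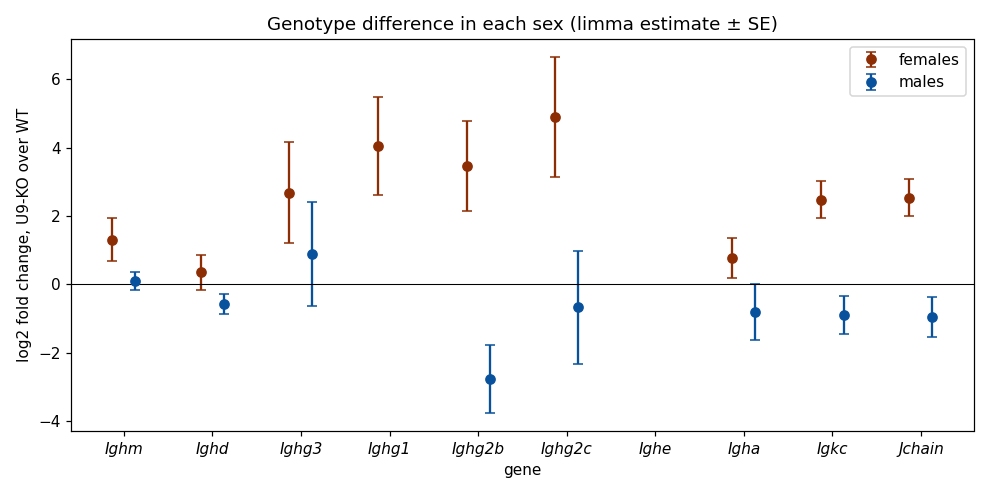
Log2 fold change of U9-KO over WT mice (y axis, limma estimate with its SE as bar) for each gene (x axis), with females in brown and males in blue; *Ighe* in both sexes and *Ighg1* in males were too low to be fitted. All 9 fitted genes lie above 0 in females, and 6 of 8 lie below 0 in males.

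With limma on log2(normalized count + 1) and adjustment over all genes, the female contrast called 0 of 24825 genes (0.00%) at a threshold of 0.05, among them 0 of the 9 antibody genes fitted. At an unadjusted p under 0.05 there were 5 of the 9, where 2.23% of all genes passed. In males, 0 of 21930 genes (0.00%) and 0 of the 8 fitted genes were called, and 1 of the 8 had an unadjusted p under 0.05, where 7.60% of all genes did. *Igkc* and *Jchain* were 2 of the 59 genes (0.238%) whose female groups did not overlap. None of the 10 genes was among the 1666 non-overlapping genes (7.60%) in males. The genes were picked for this contrast, so nothing is read from these counts. The median log2 fold change over the fitted genes was 2.54 in females and -0.74 in males, beside 0.00 over all genes in each sex. The 2 contrasts share no mice, and a difference between them was not tested.

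Some of these differences leaned on single mice. Without U9-KO female 1, the log2 fold change of *Ighg2c* was 3.27 in place of 4.90 and that of *Ighg2b* was 2.67 in place of 3.47. Without WT female 4 and U9-KO female 1, the females richest in ovary markers, it was 2.06 for *Jchain*, 1.92 for *Igkc*, 0.68 for *Ighm* and -0.22 for *Ighd*. In males *Igkc* ranged from -1.66 (without WT male 3) to -0.41 (without WT male 2) and *Jchain* from -1.73 to -0.54. In males the sign turned for *Igha* (0.33) and *Ighg2c* (1.62) without WT male 1, for *Ighg3* (-0.57) without U9-KO male 3 and for *Ighm* (-0.19) without WT male 3.

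To compare genes with each other, counts were divided by exon length in kb. On this scale *Ighm* had a median of 1355 per kb in WT females, 3503 in U9-KO females, 9160 in WT males and 8456 in U9-KO males. *Igkc* had medians of 1338, 4836, 8385 and 3604 per kb in the same order. In each group these 2 genes came first and their ranges overlapped in all groups but U9-KO males, where the lowest *Ighm* (7083 per kb) lay above the highest *Igkc* (4459 per kb). In WT females *Igha* followed at 128 per kb, *Jchain* at 109 and *Ighd* at 46.8, and these neighbours overlapped. In WT males *Jchain* came next at 592 per kb, ahead of *Ighd* at 69.5 and *Igha* at 36.4. The order of *Ighd*, *Igha* and the IgG genes changed from mouse to mouse within each group.

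The ratio of heavy to light chain transcripts was not constant. *Ighm* per kb was between 0.430 and 0.834 times *Igkc* per kb in the 5 U9-KO females, and above *Igkc* in none of them. In WT females the ratio ran from 0.660 to 4.18, with *Ighm* above *Igkc* in 2 of 5 mice. It ran from 0.842 to 2.93 in WT males and from 2.20 to 5.53 in U9-KO males, where *Ighm* was above *Igkc* in 4 of 4. *Igkc* is short, and fragments reaching into a joining segment were not counted, so the ratio is not a molar one, and whether that loss was alike in all mice was not tested.

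**Figure D3:**
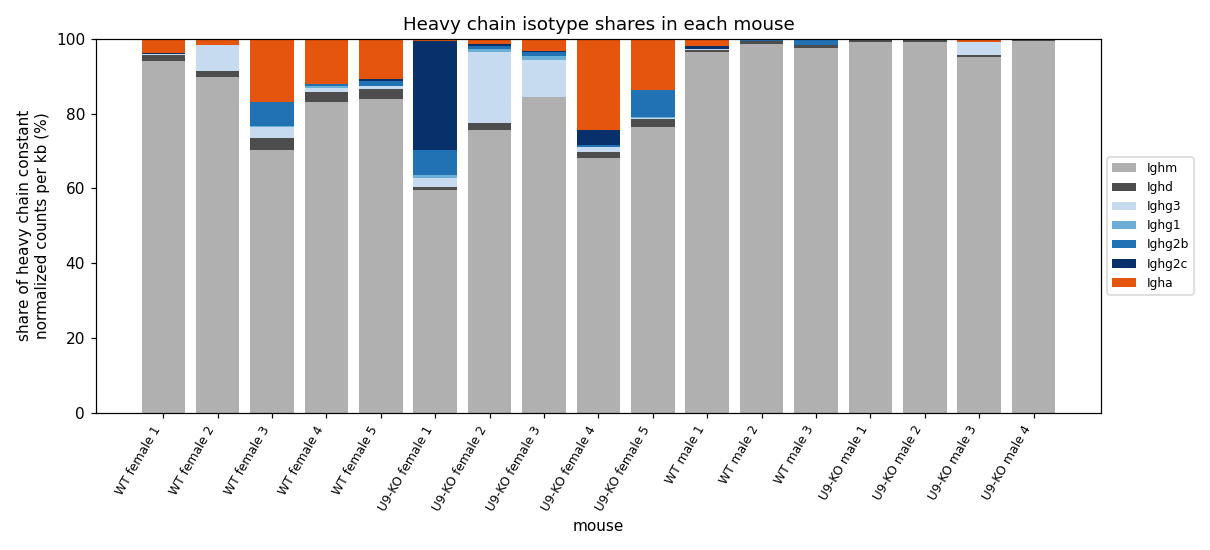
Share of each heavy chain constant gene in the summed heavy chain normalized counts per kb (y axis, percent) in each of the 17 mice (x axis), with grey for *Ighm*, dark grey for *Ighd*, blues for the IgG genes and orange for *Igha*. *Ighm* takes at least 95.2% in every male and between 59.7% and 94.1% in females, and the rest differs between single females.

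The isotype shares gave each mouse a profile of its own. *Ighm* took 94.1%, 89.9%, 70.3%, 83.1% and 83.9% of the heavy chain sum per kb in WT females and 59.7%, 75.5%, 84.3%, 68.2% and 76.4% in U9-KO females. It took 96.4%, 98.5% and 97.7% in WT males and 99.3%, 99.1%, 95.2% and 99.3% in U9-KO males. No male fell below any female's share, as the lowest male, U9-KO male 3, was at 95.2% and the highest female, WT female 1, at 94.1%.

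Behind *Ighm*, *Igha* led in 7 mice, *Ighg3* in 4, *Ighd* in 4, and *Ighg2b* and *Ighg2c* in 1 each. *Igha* took 16.9% in WT female 3 and 24.4% in U9-KO female 4. *Ighg2c* took 29.0% in U9-KO female 1, where the other 4 U9-KO females had at most 4.06%. The exon length used was 1326 bases for *Ighg2c* and between 2512 and 2678 bases for the other IgG genes. The IgG transcripts compared above were all between 1076 and 1114 bases long. Division by exon length thus raises *Ighg2c* against the other IgG genes, and these shares and rankings depend on it. *Ighg3* took 18.9% in U9-KO female 2 and 9.88% in U9-KO female 3. Within the IgG genes, *Ighg3* led in 8 mice, *Ighg2b* in 5 and *Ighg2c* in 4. A single subclass could make up nearly all IgG of a mouse, as *Ighg3* did in WT female 2 (99.7%) and U9-KO male 3 (98.3%), and *Ighg2b* in WT male 3 (99.1%) and U9-KO female 5 (95.3%). All IgG genes together took 17.2% ± 13.5 (SD, n = 5) in U9-KO females and 4.34% ± 3.79 (SD, n = 5) in WT females, and the ranges overlapped.

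The sexes were compared in WT mice, a contrast other than the one of genotype, although the shares of these mice were known when the genes were chosen. *Ighm* took 84.3% ± 9.03 (SD, n = 5) of the heavy chain sum in WT females and 97.5% ± 1.09 (SD, n = 3) in WT males, and the groups did not overlap. The two-sided exact permutation test gave p = 0.0357, the smallest that 5 against 3 mice allow, and 0.161 after adjustment over the 9 shares tested. *Ighd* took 2.34% ± 0.777 in females and 0.709% ± 0.211 in males (exact permutation p = 0.0357, adjusted 0.161), again without overlap. *Igha* took 9.07% ± 6.24 and 0.850% ± 0.946 (exact permutation p = 0.0714, adjusted 0.161). *Ighg3* took 2.38% ± 2.79 and 0.132% ± 0.163 (exact permutation p = 0.0714, adjusted 0.161), and without WT female 2 the difference went from 2.25 to 1.10 percentage points. For all IgG together the shares were 4.34% ± 3.79 and 0.914% ± 0.703 (exact permutation p = 0.143, adjusted 0.257), and without WT female 3 the difference went from 3.42 to 2.13 points. None of the 9 shares passed after adjustment, and 2 had an unadjusted p under 0.05.

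*Ighg2b* and *Ighg2c* shares differed by less than their spread between mice, with exact permutation p of 0.643 and 0.750. Kappa made up 84.3% ± 11.2 of the light chain sum in WT females and 94.2% ± 4.13 in WT males (exact permutation p = 0.214, adjusted 0.321), the rest being the lambda genes *Iglc1*, *Iglc2* and *Iglc3*. *Jchain* per kb came to 5.32% ± 3.56 and 4.51% ± 2.21 of the heavy chain sum (exact permutation p = 0.750). The blood marker sums given above for each sex are on values scaled apart, and the part of blood in these shares was not tested.

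*Ighm* and *Ighd*, which leave the same primary transcript, did not keep a fixed ratio. *Ighm* per kb was between 21.3 and 63.2 times *Ighd* per kb in WT females and between 104 and 171 times in WT males. In U9-KO males it was between 198 and 282 times. U9-KO females had ratios of 70.7, 38.7, 482, 45.9 and 33.8, so that U9-KO female 3 stood above every other mouse and the other 4 near the WT females.

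**Figure D4:**
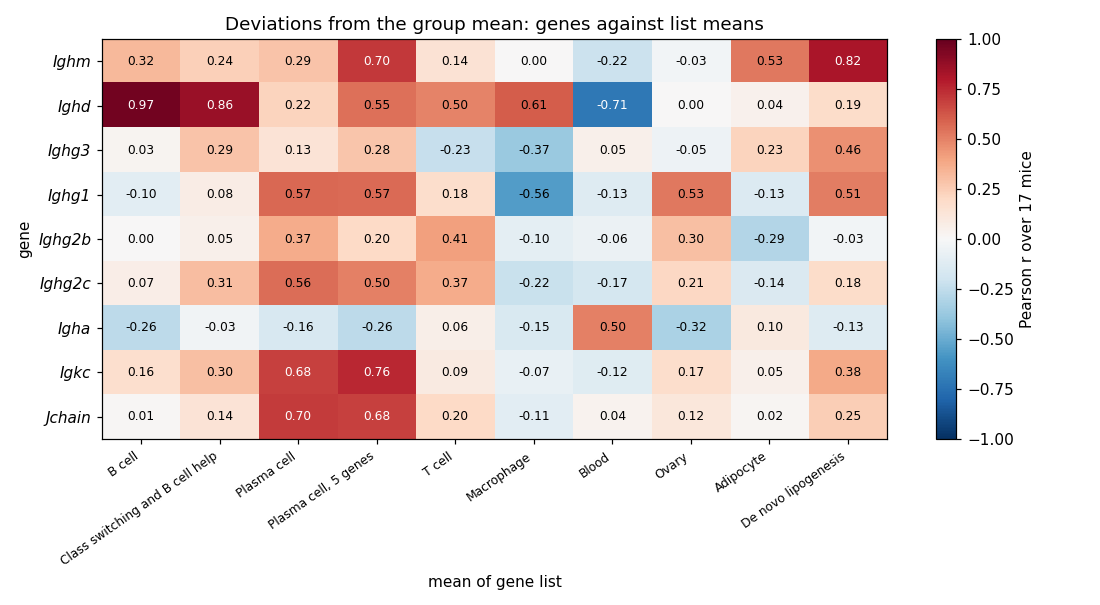
Pearson r (color and number) over 17 mice between each gene's deviation from its group mean on the log2 scale (rows) and the mean deviation of a list of genes (columns). *Ighd* goes with the B cell list (0.97), *Igkc* and *Jchain* with both plasma cell lists (0.68 to 0.76), and *Ighm* with de novo lipogenesis (0.82). The shorter plasma cell list was cut after the values were seen. The lymph node stroma list, with r of 0.66 for *Igkc* and 0.61 for *Jchain*, is not drawn.

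Variation among mice of the same sex and genotype is not the genotype contrast, and was compared with markers of B cells and of plasma cells. The genes and the marker lists were chosen with earlier results of these data known, so the tests below are not independent of that choice. Each gene's log2 value was taken relative to the mean of its group, leaving out *Ighe* for its low mean. It was set against the mean of 10 B cell genes and of 11 plasma cell genes, 18 relations in all. Resampling moved mice freely across groups although the group means had been removed, so the permutation p-values may be too small. *Ighd* followed the B cell mean with Pearson's r = 0.97 and Spearman's rho = 0.94 over 17 mice (permutation p = 1e-05 for each, the smallest that 100000 resamples can give, adjusted p = 0.00018). It stayed at 0.95 without the 2 mice farthest from the median, and was 0.99 within females and 0.85 within males. Only 2 of 17521 genes, those of the list included, had a higher r with that mean.

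The other 8 genes did not pass with the B cell mean. *Ighm* had r = 0.32 and rho = 0.46 (permutation p = 0.207, adjusted 0.533), and the switched genes and *Jchain* had r between -0.26 and 0.07. *Igkc* had r = 0.16 and rho = 0.27 (permutation p = 0.530, adjusted 0.824). Without the 2 mice farthest from the median, U9-KO females 3 and 1, r was 0.68 for *Ighm* and 0.41 for *Igkc*. Without U9-KO female 3 alone, r was 0.83 for *Ighm* (permutation p = 0.00011, adjusted 0.00099) and 0.60 for *Igkc* (permutation p = 0.0131, adjusted 0.0473). These p-values lend no support, as this mouse was singled out after the values were seen. U9-KO female 3 had the lowest *Cd79a*, a B cell receptor subunit, of all females, 82, beside the highest *Ighm*.

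*Jchain* and *Igkc* followed the plasma cell mean. *Jchain* had r = 0.70 and rho = 0.65 (permutation p = 0.00106 and 0.00608, adjusted 0.00954 and 0.0547), with r = 0.72 without the 2 farthest mice, 0.67 within females and 0.84 within males. *Igkc* had r = 0.68 and rho = 0.60 (permutation p = 0.00162 and 0.0135, adjusted 0.00972 and 0.0808), with 0.62 without the 2 farthest mice, 0.68 within females and 0.73 within males. The ranks thus missed the threshold after adjustment for both genes. Without U9-KO female 1 only *Jchain* passed, and within females or males alone neither did. *Xbp1* and *Txndc5*, the most abundant genes of that list at means of 5073 and 4005, serve protein folding in other cells too. With the list cut to *Mzb1*, *Tnfrsf17*, *Derl3*, *Prdm1* and *Pou2af1*, r was 0.76 for *Igkc*, 0.70 for *Ighm* and 0.68 for *Jchain*. The adjusted permutation p was 0.00099, 0.00599 and 0.00599, which lends no support, as the list was cut after the values were seen. With the full list *Ighm* had r = 0.29 (permutation p = 0.262, adjusted 0.589). *Igha* did not pass with either mean, at r = -0.26 and -0.16 (permutation p = 0.308 and 0.549). Of 17521 genes, 182 had a higher r with the plasma cell mean than *Jchain* and 256 than *Igkc*. With the mean of the lymph node stroma list described below, r was 0.61 for *Jchain* (137 genes higher) and 0.66 for *Igkc* (75 higher). These were 0.86 and 0.90 within males and 0.36 and 0.45 within females. Which of the lists these genes follow more closely was not tested.

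**Figure D5:**
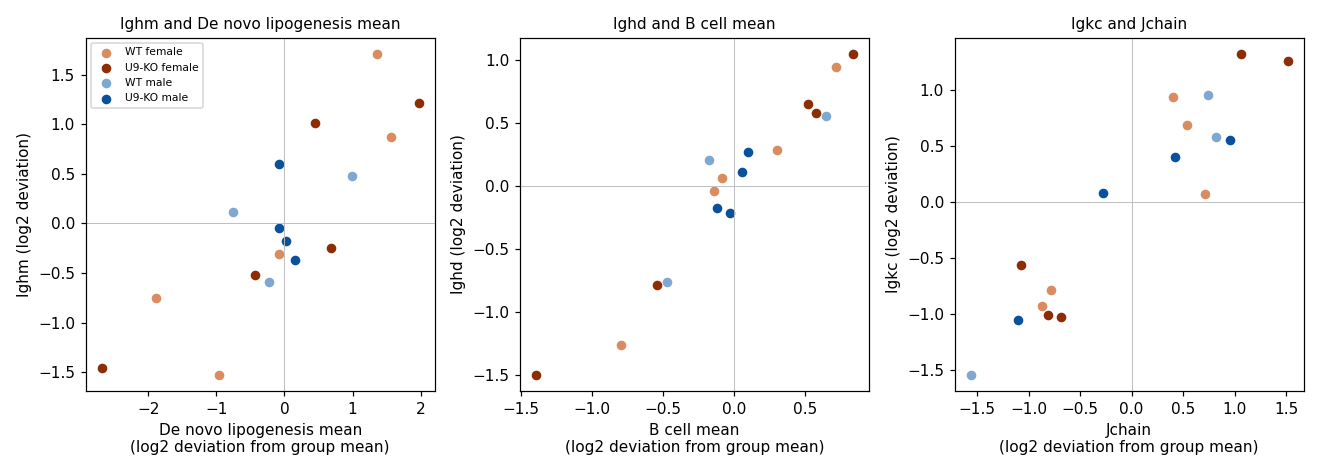
Deviation from the group mean on the log2 scale, one point per mouse colored by group, for *Ighm* against the de novo lipogenesis mean (left), *Ighd* against the B cell mean (middle) and *Igkc* against *Jchain* (right). Over all mice r is 0.82, 0.97 and 0.94. On the left it is 0.86 within females and 0.31 within males, and the females span a wider range (-2.68 to 1.97) than the males (-0.76 to 0.99).

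Among themselves, *Igkc* and *Jchain* were the closest pair, with r = 0.94 over 17 mice (0.92 within females, 0.97 within males) as a description. *Ighm* and *Igkc* followed with r = 0.67, and these were the 2 of 36 pairs at 0.6 or more. The IgG genes did not move as a block, as *Ighg2b* had r = -0.04 with *Ighg2c* and -0.01 with *Ighg3*. *Igha* had r between -0.17 and 0.35 with every other gene. All genes of a mouse share one library and its size factor.

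The genes most like each member were ranked over 17521 genes with a mean of at least 10, as a description with no test. For *Ighm* the 5 highest outside the immunoglobulin genes were *Aatk* (r = 0.92), *Hvcn1* (0.90), *Ergic1* (0.90), *Mogat2* (0.90) and *Mmp15* (0.90). *Hvcn1* encodes a proton channel found in B cells, and *Mogat2* an enzyme of triglyceride synthesis. *Ighm* had 264 genes at r of 0.8 or more, against 1 for *Igkc* and 1 for *Igha*. After *Jchain*, *Igkc* was most like *H2-Q6* (0.79), *Il2rg* (0.79), the shared receptor chain of several interleukins, *Sec11c* (0.78), a signal peptidase subunit, and *Ppp3ca* (0.77). *Jchain* was most like *Sec11c* (0.80), *Crem* (0.80), *H2-Q6* (0.80), *Erich1* (0.79) and *Il2rg* (0.79) outside the immunoglobulin genes. *Igha* was most like *A530013C23Rik* (0.80), *D630033O11Rik* (0.79), *Emc10* (0.77), *Rab40b* (0.77) and *Zdbf2* (0.76).

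*Ighm* also moved with the mean of *Acly*, *Acaca*, *Fasn*, *Elovl6*, *Scd1*, *Me1* and *Thrsp*, enzymes and regulators of de novo lipogenesis, a list set against it after its values were seen. Over 17 mice r was 0.82 and rho 0.79, with 0.86 within the 10 females and 0.31 within the 7 males. In this tissue 911 of 17521 genes had a higher r with that mean. *Fasn*, fatty acid synthase, had 423472, 398953, 18029, 38582 and 112571 normalized counts in WT females and 353643, 429828, 931443, 29690 and 196207 in U9-KO females. WT females 3 and 4 and U9-KO female 4 were the 3 females lowest for *Fasn* and were also among the 4 lowest females for *Ighm*. *Igkc* had r = 0.38 and *Jchain* 0.25 with the same mean. Its 7 genes had medians of 0.95 in females (7 of 7 higher in U9-KO mice) and 0.95 in males (6 of 7 higher) as log2 fold changes, with 0 genes called in either sex, and its part in the *Ighm* difference was not tested.

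The other genes of the antibody system were described by lists. None of the 13 receptors and carriers of antibodies was called in either sex, and their median log2 fold change was -0.12 in females, where 6 of 13 were higher, and -0.29 in males, where 2 of 13 were higher. The most abundant were *Fcgrt*, the neonatal Fc receptor that recycles IgG, with a mean of 5592 normalized counts over all mice, *Fcgr2b*, the inhibitory IgG receptor, with 901, and *Fcgr3*, an activating IgG receptor, with 616. *Pigr*, which carries polymeric IgA and IgM across epithelia, ranged from 4 to 15 in WT and from 16 to 55 in U9-KO females and stayed at or below 8 in males. It was chosen after its values were seen. *Fcmr*, the IgM receptor, lay between 16 and 79 in females and between 7 and 55 in males.

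None of the genes for class switching and B cell help was called either, with 17 fitted in females (median -0.06) and 16 in males (median -0.42). *Tgfb1*, a switch factor for IgA, had a mean of 916, *Cxcl13*, which attracts B cells, 392, and *Il33*, an alarmin, 386. *Cxcl13* ranged from 64 to 2157 in WT males and from 37 to 141 in U9-KO males. Of the lambda constant genes *Iglc1* had a mean of 93.1, *Iglc2* of 64.6 and *Iglc3* of 30.5, and none of the 3 was called, with medians of 1.63 in females and -1.03 in males.

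For cell types the same fits called 0 genes in every list. The B cell list, without *Cr2*, had a median of 0.05 in females and -0.89 in males, where 10 of 10 were lower and 8 had an unadjusted p under 0.05, beside 7.60% of all genes. In males 8 of 8 T cell genes (1 with an unadjusted p under 0.05), 6 of 6 macrophage genes (3) and 5 of 5 blood genes (0) were lower too. The most abundant genes of the B cell list by normalized count included *Cd79a* (mean 162) and *Ms4a1* (138). The plasma cell list had 0.35 and -0.25, led by *Xbp1*, *Txndc5* and *Sdc1* (758), and the 5 genes of its shorter form had 0.74 (5 of 5 higher) and -0.66 (5 of 5 lower). The T cell list had 0.24 and -0.51 (*Cd2* 92.9, *Cd4* 49.7, *Lck* 48.1), and the macrophage list -0.20 and -0.44 (*Lyz2* 11103, *Csf1r* 3064, *Mrc1* 2907). The adipocyte list stood at 0.04 and 0.08 (*Fabp4* 150071, *Cd36* 64364, *Adipoq* 56288), and the lymph node stroma list at 0.10 and -0.49 (*Ccl21a* 1637, *Cxcl13* 392, *Ccl19* 39.7). The ovary list stood at -0.40 in females (*Cyp11a1* 10240, *Hsd3b1* 8471, *Star* 1675 over all mice) and the blood list at 0.37 and -0.40 (*Hba-a1* 17867, *Hbb-bs* 16971, *Hba-a2* 8799). The epididymis list was nearly absent in males, at a sum of at most 9, and *Cst8* (mean 77.8), *Crisp1* (14.2) and *Rnase10* (6.82) led it. In U9-KO female 1 the same list summed to 715.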

How the data were processed

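RNA-seq of whole pWAT was made with a stranded paired-end protocol. The authors trimmed reads with trim_galore and used summarizeOverlaps in Union mode to count them. The submitters' processing notes name STAR 2.7.3a, DESeq2 1.28.1 and GRCm38. What the authors deposited is treated as a score, since the gene counts had been scaled by size factors and rounded. The series table repeats the 17 libraries and was not used, and for 2 male libraries whose column numbers differ from their labels the labels were used. Symbols, exon lengths and sequences came from GENCODE M21.

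The genotype was fitted in each sex with limma 3.58.1 in R 4.3.3 (lmFit, eBayes with trend) on log2(normalized count + 1), for genes with a total of at least 10, at a Benjamini-Hochberg adjusted p under 0.05, and tested on simulated data. The fold change on this scale understates that of low genes. Shares used exon kb and two-sided exact permutation tests, and correlations 100000 resamples, in scipy 1.17.1 under Python 3.11.15. All relations, of which 18 were in a family, used deviations from the 4 group means. Likeness took the 5 genes outside the immunoglobulin genes with the highest r, and lists are given with their 3 most abundant genes, except that the values of some list genes are not reported here. The members and lists were chosen with earlier results of these data known. Mice are the replicates. Replicate numbers were checked for pairing by correlation between mice and showed no sign of it, while a shared litter or cage was not tested.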

Additional observations from a re-analysis of the deposited data

Results flagged for a closer look

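Within groups of 4 or 5 mice, 27 gene and group combinations were examined for a single mouse far from the others, and 7 had one by Dixon's ratio, where chance gives about 1 in 20 for normally distributed values. These counts are skewed and include the U9-KO mice on which the genes were selected, so that rate need not hold, and on the log2(normalized count + 1) scale, a scale tried after the data were seen, only 1 of the 7 passed, *Ighe* with its single count. *Ighg3* was at 1073 normalized counts in WT female 2 and at 635 in U9-KO male 3. *Ighg2b* was at 247 in WT female 3 and at 2562 in U9-KO female 1. *Ighg2c* was at 5449 in U9-KO female 1. *Ighg1* was at 9 in WT female 4, and *Ighe* at 1 in U9-KO female 1, both too low to interpret. All 7 are switched isotypes, and U9-KO female 1 gave 3 of them. That mouse also had the highest ovary markers.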

How the results depend on the processing

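With each mouse left out in turn, 0 of the antibody genes were called in females and 0 in males. For the shares of WT females and males the count was 0 as well, but with a mouse left out the smallest exact permutation p is 0.0571 or 0.0952, so none could pass. The count of antibody genes called was also 0 in both sexes with the replicate block, without a filter, with a pseudocount of 0.5, with TMM scaling and without a trend. It was 0 as well in females without the 2 mice richest in ovary markers. Over all genes, the fit without a trend called 1 gene in females and 1 in males. Without WT male 1, 71 genes were called in males, none of them antibody genes. Same-numbered mice correlated between -0.43 and 0.12 in females and between -0.12 and 0.01 in males, so the numbers did not pair them. With all 17 mice, 4 shares passed between the sexes, a count that includes the U9-KO mice on which the genes were selected and lends no support, and the *Ighg2c* share turned to 3.29 points higher in females. With a WT mouse left out that difference ranged from -0.27 to 0.0791 (without WT male 1), and the difference in *Jchain* per heavy chain from -0.41 (without WT male 3) to 1.77, with -0.24 without WT female 3. The genes following the B cell mean numbered 1 to 3 (3 without U9-KO female 3) with a mouse left out and 0 in males alone. Those following the plasma cell mean numbered 1 (without U9-KO female 1) to 3 with a mouse left out and 0 in females and 0 in males alone. The cause was not tested. Depth in reads is unknown, which limits *Ighe*, *Ighg1* and *Ighg2c* most.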
